A study of Mus musculus with 6 samples.

Results

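The genes described here encode the proteins of the mitochondrial ribosome, followed in CMT93 spheroids grown with or without palmitate. CMT93 is an established mouse cell line from a colorectal carcinoma. Members were taken by symbol, as count table genes named Mrpl or Mrps with a number, without pseudogene names, which gave 77 of 23399 genes, 48 of the large and 29 of the small subunit. Vehicle libraries (n = 3) came from cells given ethanol with bovine serum albumin, and palmitate libraries (n = 3) from cells given 200 µM sodium palmitate coupled to that albumin in ethanol. Both groups are wildtype by label, received serum, antibiotics and albumin, spent 1 week as a monolayer and then 5 days as spheroids on soft agar with Matrigel, and differ by label in palmitate alone. The comparison asks how transcript levels differ between spheroids with and without this saturated fatty acid. As a model this is 1 cell line without the other cells of a tumour.

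The mitochondrial ribosome translates the few messages of the mitochondrial genome, which encode core subunits of the respiratory chain. Its ribosomal RNAs come from the mitochondrial genome, whereas all its proteins are encoded in the nucleus, made in the cytosol and imported. The large subunit joins amino acids and holds the exit tunnel at the inner membrane, and the small subunit binds the message and decodes it. Symbols do not follow the structure throughout: the proteins of Mrps30 and Mrps18a sit in the large subunit, and that of Mrps36 is now regarded as part of the oxoglutarate dehydrogenase complex.

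Depth was 18.9 to 21.9 M counts per vehicle library and 22.5 to 22.9 M per palmitate library, so depth moved with the groups. Its part in the results was not tested beyond thinning all libraries to the shallowest, after which 32 members were called higher and 6 lower. Over all 14655 genes tested after thinning, 51.4% were called in either direction. Members took 0.281% to 0.302% of all counts. The labels number the samples but do not say that they were separate cultures, so p-values speak only of spread among these libraries, possibly technical. In RNA from whole spheroids, more cells of a kind and more RNA per cell cannot be told apart. Epithelial markers were abundant, with Epcam at 644 to 679 CPM (counts scaled to a common library size, TMM-normalised) and Cdh1 at 2064 to 2165 CPM, while Krt20, a marker of mature colon cells, stayed at or below 0.268 CPM and Cdx2 at or below 2.73 CPM. Several of them differed between groups by more than most members did: 7 of 9 tested epithelial markers were called, 4 higher and 3 lower. Over all tested genes the share called was 52.8%. The keratin genes Krt8 (1702 against 1438 CPM) and Krt18 (1445 against 1079 CPM) fell, Krt19 rose from 1249 to 1364 CPM, and the tight junction gene Cldn3 rose from 3.92 to 12.4 CPM. Of 12 markers of blood, vessel, fibroblast, liver and nerve cells in the table, 7 averaged under 1 CPM, and Lyz2 and Pdgfra were at 0 in all vehicle libraries. Their summed level was 110.5 to 119 CPM with vehicle and 78.8 to 85.2 CPM with palmitate, mostly from the neuronal gene Snap25 (91.1 against 48.2 CPM). Other markers of that list moved the opposite way: the neuronal Tubb3 rose from 9.99 to 20.03 CPM and the macrophage gene Cd68 from 7.14 to 9.66 CPM. The part of these markers in the results below was not tested.

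Most mitochondrial ribosomal protein genes were slightly higher with palmitate, and a few small subunit genes were lower. All 77 passed the filter on low counts. Of these, 36 rose, 6 fell and 35 did not pass the threshold (edgeR quasi-likelihood test, two-sided, Benjamini-Hochberg adjusted p under 0.05 over all 14987 tested genes). Over all tested genes 27.4% were called higher and 25.4% lower, or 52.8% in either direction. The members' share called in either direction (54.5%) was therefore near the background, while 46.8% were called higher and 7.79% lower. The median log2 fold change of members was 0.09, with quartiles of 0.01 and 0.17, against a median of 0.00 over all tested genes. Log2 fold changes were positive for 59 members and negative for 18. The 3 libraries of one group lay wholly above those of the other for 47 members, 39 of them higher with palmitate, which is 61.0% beside 57.8% of all tested genes. No member changed by 1.5-fold: the range ran from a fall of 24.3% to a rise of 34.3%. Of all tested genes, 1752 were called with a change beyond 1.5-fold. With DESeq2 the counts were 23 higher and 4 lower, beside 33.4% of 17048 genes called in either direction. Against a minimum change of 1.2-fold (edgeR's glmTreat) 2 members were higher and 1 was lower, beside 15.2% of all tested genes called.

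**Figure D1:**
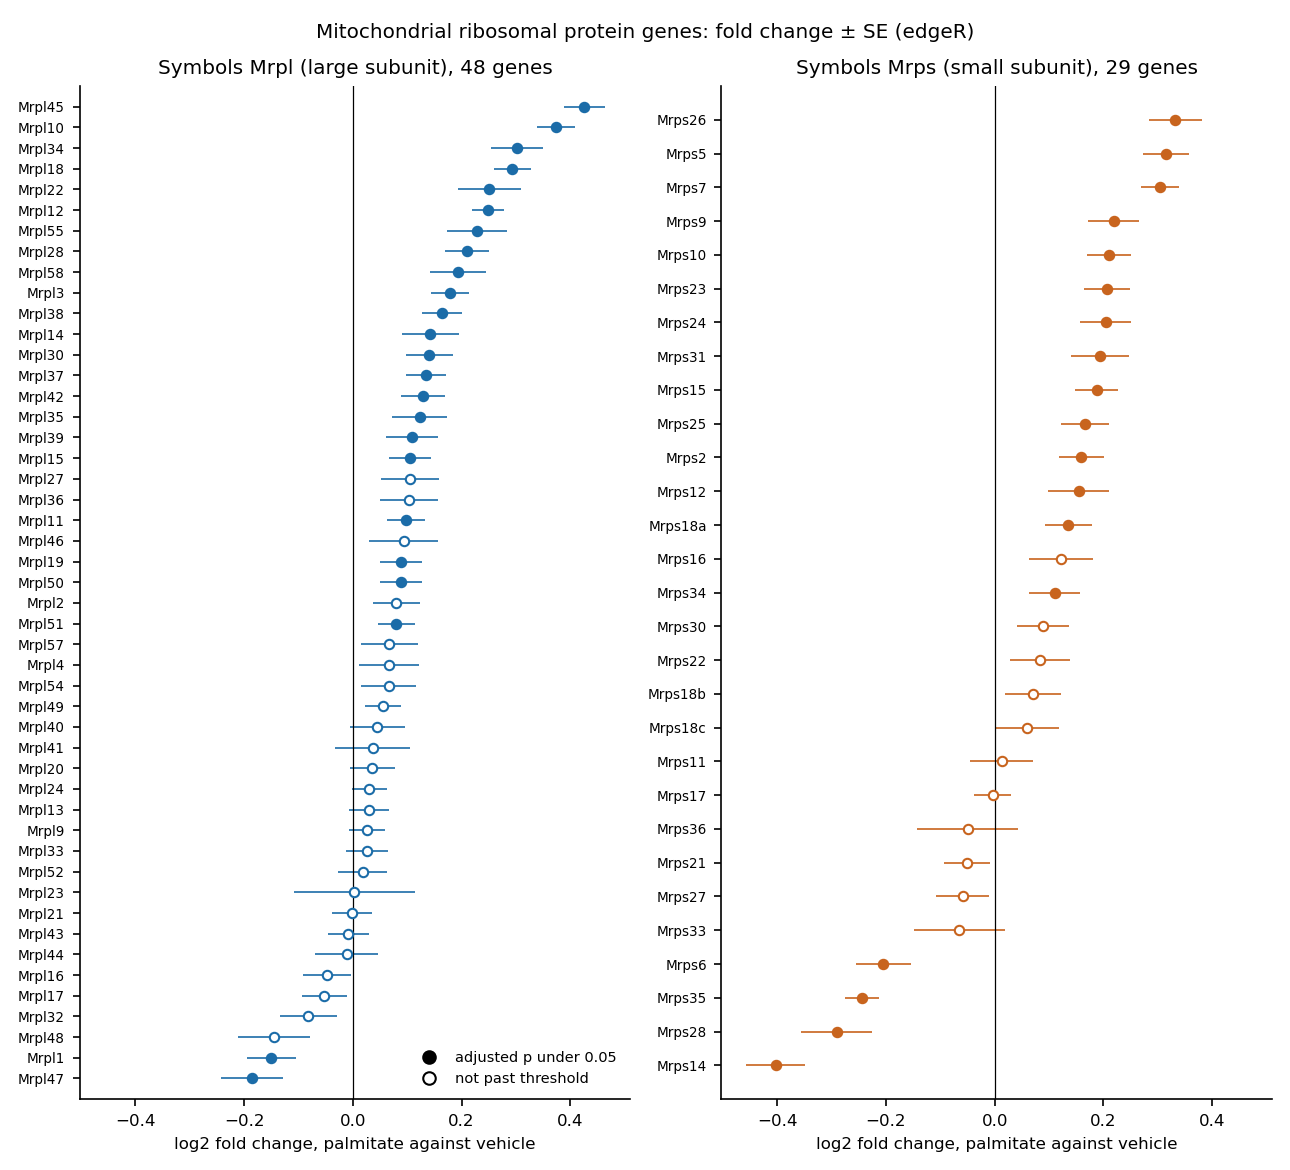
Log2 fold change with palmitate against vehicle (x axis) for each of the 77 genes (y axis), large subunit symbols on the left and small on the right; points are edgeR estimates, bars are ± SE, and filled points passed the adjusted threshold. Large subunit values run from -0.19 to 0.43 and small subunit values from -0.40 to 0.33.

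The 6 greatest rises were in Mrpl45, Mrpl10 and Mrpl34 of the large subunit and Mrps26, Mrps5 and Mrps7 of the small. Mrpl45 (ENSMUSG00000018882.13), whose protein tethers the ribosome to the inner membrane beside the exit tunnel, had 43.4, 45.6 and 43.0 CPM with vehicle and 60.0, 56.6 and 60.9 CPM with palmitate. Every palmitate library was above every vehicle library (44.0 ± 1.42 against 59.2 ± 2.30 CPM, SD, n = 3 each), a difference of 0.43 ± 0.038 (SE) in log2 with an edgeR adjusted p = 7.33e-17. Mrpl10, at the base of the stalk that recruits translation factors, had 55.1, 54.0 and 56.6 CPM with vehicle and 71.5, 74.9 and 68.3 CPM with palmitate. Its groups did not overlap either (log2 fold change 0.37, SE 0.035, adjusted p = 7.47e-16, edgeR). These 2 were the only members called higher against the 1.2-fold minimum.

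Mrpl12 encodes the protein that forms the tip of the same stalk and has also been reported to bind the mitochondrial RNA polymerase. It had 81.6, 82.0 and 81.3 CPM with vehicle and 95.7, 97.2 and 98.0 CPM with palmitate, a close spread within each group (log2 fold change 0.25, SE 0.029, adjusted p = 5.69e-12, edgeR). Mrpl11, which lies where the stalk joins the body, rose less (0.10), and that call was lost with DESeq2, upper-quartile scaling, length and GC offsets (with or without a replicate block), and without vehicle replicate 2 or palmitate replicate 3. Mrpl34, one of the shortest members, had 28.3, 27.7 and 28.8 CPM with vehicle and 34.1, 33.5 and 36.8 CPM with palmitate, without overlap (log2 fold change 0.30, adjusted p = 5.06e-08, edgeR).

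Among small subunit genes, Mrps26, which has no bacterial counterpart, had 25, 25.6 and 25 CPM with vehicle and 31.6, 32.2 and 31.5 CPM with palmitate. The groups were far apart beside their spread (log2 fold change 0.33, SE 0.048, adjusted p = 7.08e-09, edgeR). Mrps5, the counterpart of a bacterial protein near the entry of the message, had 39.2, 35.7 and 38.1 CPM with vehicle and 45.1, 46.7 and 48.4 CPM with palmitate, again without overlap (log2 fold change 0.32, adjusted p = 4.26e-10, edgeR). Mrps7, a protein of the head of the small subunit that binds its ribosomal RNA, had 53.5, 51.9 and 54.1 CPM with vehicle and 65.9, 67.0 and 64.1 CPM with palmitate (log2 fold change 0.30, adjusted p = 3.41e-12, edgeR).

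The falls were fewer and mostly in the small subunit. Mrps14, another protein of the small subunit head with a bacterial counterpart, had 26.6, 27.8 and 27.7 CPM with vehicle and 18.8, 21.6 and 21.7 CPM with palmitate. All palmitate libraries were lower, replicate 1 the most (27.3 ± 0.651 against 20.7 ± 1.66 CPM, SD, n = 3 each), a difference of -0.40 ± 0.054 (SE) in log2 with an edgeR adjusted p = 6.51e-10. It was the one member called lower against the 1.2-fold minimum. Mrps28, classed with a bacterial protein that binds messages, had 17.2, 16.3 and 16.2 CPM with vehicle and 13.2, 13.8 and 13.5 CPM with palmitate, without overlap (log2 fold change -0.29, adjusted p = 9.82e-05, edgeR). Mrps35, with no bacterial counterpart and the highest of the small subunit in CPM, had 85.2, 85.7 and 85.9 CPM with vehicle and 72.9, 69.7 and 74.2 CPM with palmitate, so that the vehicle libraries were nearly equal and all palmitate libraries lower (log2 fold change -0.24, adjusted p = 1.19e-10, edgeR). Mrps6, of the small subunit platform, had 27.3, 29.8 and 28.3 CPM with vehicle and 25.5, 24.6 and 24.2 CPM with palmitate. It fell less, again without overlap (log2 fold change -0.20, adjusted p = 3.58e-04, edgeR).

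Of the large subunit, Mrpl47, near the exit of the tunnel, had 22.8, 21.7 and 21.9 CPM with vehicle and 18.9, 18.4 and 21.0 CPM with palmitate (log2 fold change -0.19). Mrpl1, which forms the mobile stalk on the side where spent tRNA leaves, had 40.2, 38.2 and 36.9 CPM with vehicle and 35.2, 32.4 and 36.1 CPM with palmitate (log2 fold change -0.15). In both genes the groups were close without overlapping, and both calls were lost with DESeq2 and without palmitate replicate 2.

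**Figure D2:**
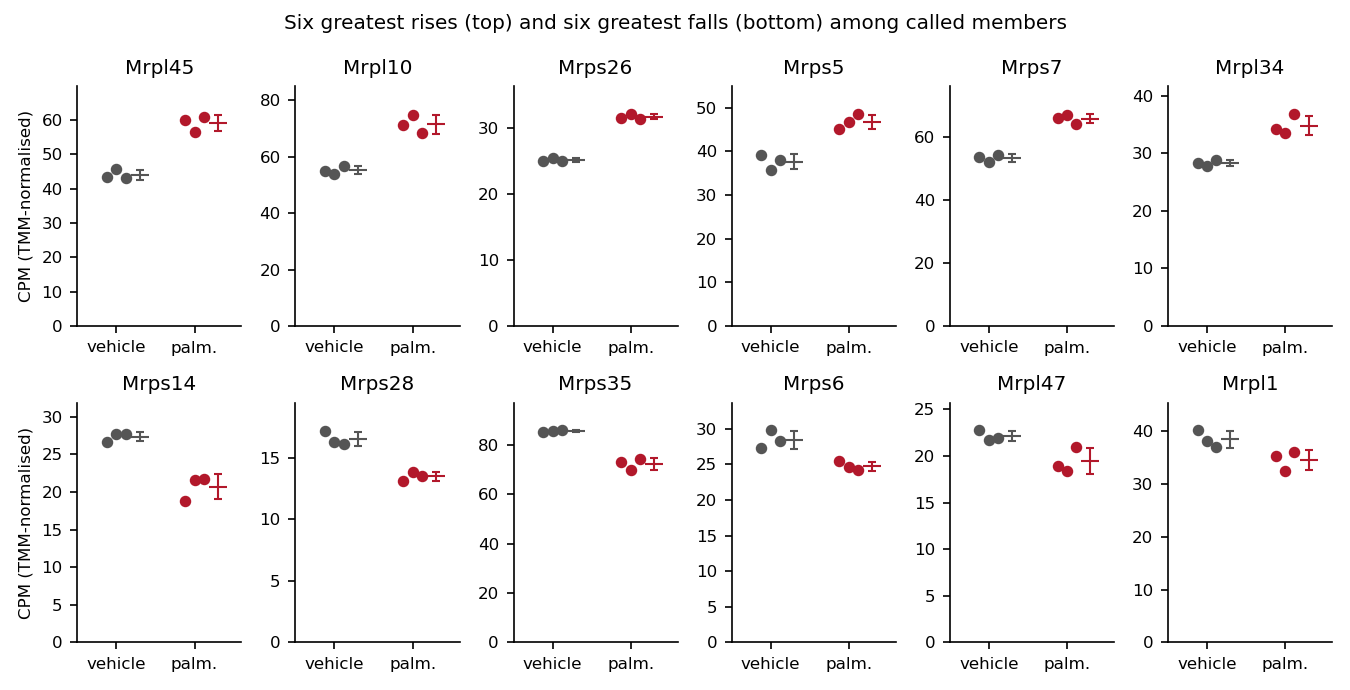
TMM-normalised CPM (y axis, from 0) in each vehicle and palmitate library (x axis) for the 6 called members with the greatest rise (top row) and the 6 with the greatest fall (bottom row); points are libraries, the bar beside them is mean ± SD (n = 3). In all 12 genes the groups do not overlap; the gap is narrow in Mrpl47, where vehicle is 21.7 CPM at its lowest and palmitate 21.0 CPM at its highest, and in Mrpl1 (36.9 and 36.1 CPM).

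The large and the small subunit were then set side by side. Of 48 large subunit genes 22 rose, 2 fell and 24 did not pass the threshold, and of 29 small subunit genes 14 rose, 4 fell and 11 did not. That is 45.8% called higher and 4.17% lower in the large subunit, and 48.3% and 13.8% in the small. Over all tested genes the shares were 27.4% and 25.4%. In either direction 50.0% of large and 62.1% of small subunit genes were called, beside 52.8% of all tested genes. The large subunit's count of rises was 12 with DESeq2, 14 with upper-quartile scaling and 14 without palmitate replicate 3. These settings called 33.4%, 52.4% and 47.6% of all genes they tested, in either direction. The large subunit's count of falls was 0 with DESeq2 (2 with limma-voom, and 3 at an unadjusted p under 0.05 in edgeR) and 0 without palmitate replicate 2. The median log2 fold change was 0.08 in the large and 0.11 in the small subunit, and the small subunit ranged wider, from its lower quartile of -0.05 to its upper quartile of 0.19, against 0.03 and 0.14 in the large. By place in the structure, with Mrps30 and Mrps18a in the large subunit and Mrps36 left out, 23 of 50 large and 13 of 26 small subunit genes rose and 2 and 4 fell. That is 46% of large and 50% of small subunit genes called higher, and 4% and 15.4% lower.

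Summed over genes, large subunit messages made up 1889 ± 6.58 CPM with vehicle and 2034 ± 22.8 CPM with palmitate, and small subunit messages 926 ± 9.33 and 978 ± 10.5 CPM (SD, n = 3 each). These sums were 7.65% and 5.67% higher with palmitate, and neither overlapped between groups. Within a library, large subunit counts were 2.02, 2.05 and 2.05 times the small subunit counts with vehicle and 2.11, 2.06 and 2.07 times with palmitate. The ratio was thus 1.88% higher with palmitate (2.04 ± 0.0149 against 2.08 ± 0.0241, SD, n = 3 each), with palmitate replicate 1 the highest. The groups did not overlap, but the closest pair of libraries was 2.05 with vehicle and 2.06 with palmitate, and no test was made of a ratio over chosen genes. Without palmitate replicate 1 the difference in ratio was 0.0245 in place of 0.0384. By place in the structure the ratio was 2.29 ± 0.0148 against 2.33 ± 0.0325, and with counts per kilobase 2.18 ± 0.0206 against 2.23 ± 0.0106 (SD, n = 3 each). The sums thus favoured the large subunit while the median fold change was greater in the small.

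**Figure D3:**
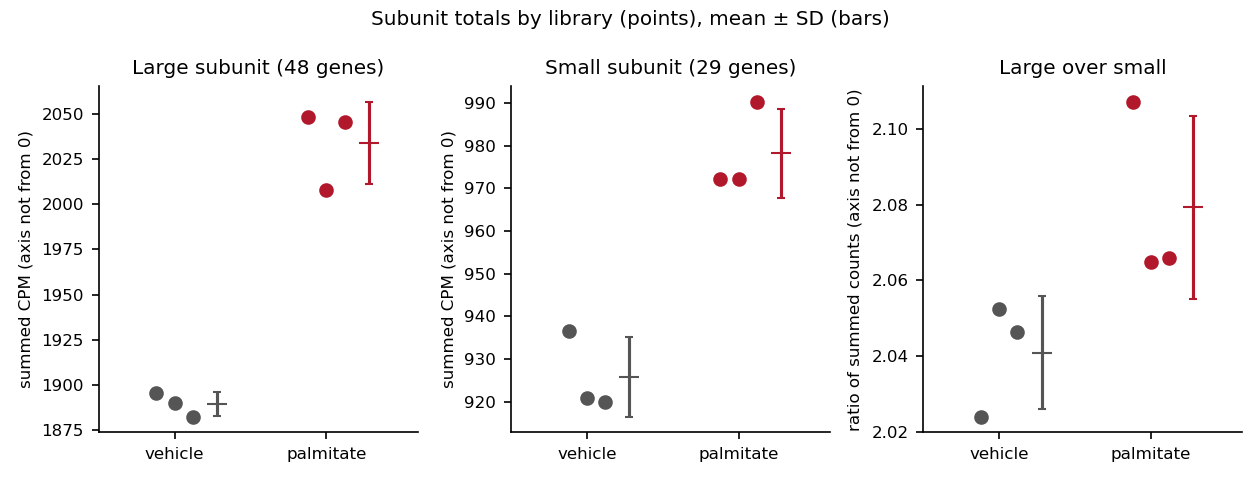
Summed TMM-normalised CPM of large subunit (left) and small subunit genes (middle), and the ratio of their summed counts (right), by library; points are libraries, bars are mean ± SD (n = 3), and the y axes do not start at 0. Large subunit sums are 1882 to 1896 CPM with vehicle and 2008 to 2048 CPM with palmitate.

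Members were also split by a fixed list of those with a bacterial counterpart, leaving out Mrps36. Of the Mrps18 genes only Mrps18c was placed with a counterpart, and Mrps18a and Mrps18b without one. The list also placed Mrpl55, which rose (0.23), with a counterpart, although its protein is regarded as specific to mitochondria. The split is therefore approximate. Of 46 placed with a counterpart, 22 rose and 5 fell (47.8% and 10.9%, median log2 fold change 0.10). Of 30 placed without one, 14 rose and 1, Mrps35, fell (46.7% and 3.33%, median 0.09). Beside them stand 27.4% of all tested genes called higher and 25.4% lower. Proteins near the catalytic centre of the large subunit include those of Mrpl2 and Mrpl3. Mrpl3 rose (58.6 ± 1.18 against 66.3 ± 2.37 CPM, SD, n = 3 each, log2 fold change 0.18), and Mrpl2 had 41.9 ± 2.63 and 44.3 ± 2.42 CPM (log2 fold change 0.08, adjusted p = 0.11, edgeR). At the decoding site, Mrps12 rose by 0.15 on the log2 scale, a call that was lost with DESeq2 and without vehicle replicate 1 or 3. Mrpl58, a peptidyl-tRNA hydrolase that frees stalled chains, had 22.9, 23.1 and 23.7 CPM with vehicle and 25.2, 26.9 and 27.7 CPM with palmitate, a rise without overlap (log2 fold change 0.19, adjusted p = 0.00104, edgeR).

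The 3 Mrps18 genes encode homologues of 1 bacterial protein, although the split above placed Mrps18a and Mrps18b without a counterpart. Of the 3 genes, 1 passed the threshold. Mrps18a had 37.2, 34.3 and 36.5 CPM with vehicle and 39.4, 39.6 and 39.4 CPM with palmitate, a rise without overlap (log2 fold change 0.14), though not with DESeq2 or without vehicle replicate 2. Mrps18b had 23.3, 24.6 and 24 CPM with vehicle and 25.2, 26.1 and 24.4 CPM with palmitate (0.07, edgeR adjusted p = 0.26). Mrps18c had 23.1, 19.2 and 20.8 CPM with vehicle and 23.5, 20.8 and 21.1 CPM with palmitate (0.06, edgeR adjusted p = 0.411). Groups overlapped in both. Whether these 3 differ from one another was not tested. Mrps30, the other large subunit protein with a small subunit symbol, had 27.9, 28 and 27.7 CPM with vehicle and 30.7, 29.3 and 28.9 CPM with palmitate, which did not overlap yet missed the threshold (log2 fold change 0.09, adjusted p = 0.115, edgeR). Mrps34, needed for a stable small subunit, had 29.6, 29.4 and 30.6 CPM with vehicle and 32.1, 32.1 and 32.5 CPM with palmitate, close but without overlap. It was called at 0.11 in log2 (edgeR adjusted p = 0.0384), and that call was lost without any 1 of 5 libraries (all but vehicle replicate 3), with DESeq2, library totals alone, upper-quartile scaling or thinning. Mrps36, the oxoglutarate dehydrogenase protein, had 7.74, 7.51 and 8.4 CPM with vehicle and 8.28, 6.70 and 7.88 CPM with palmitate, fully overlapping (log2 fold change -0.05, adjusted p = 0.683, edgeR).

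The remaining members that rose were Mrpl14, Mrpl15, Mrpl18, Mrpl19, Mrpl22, Mrpl28, Mrpl30, Mrpl35, Mrpl37, Mrpl38, Mrpl39, Mrpl42, Mrpl50, Mrpl51 and Mrpl55 of the large subunit and Mrps2, Mrps9, Mrps10, Mrps15, Mrps23, Mrps24, Mrps25 and Mrps31 of the small. Their log2 fold changes lay between 0.08 in Mrpl51 and 0.29 in Mrpl18. Unsure calls were those of Mrpl50, lost in 13 of 17 alternatives, Mrpl19 and Mrpl51 (12 each) and Mrpl35 and Mrpl39 (11 each). Fewer alternatives ended those of Mrpl15 (7), Mrpl14 (5), Mrpl30 and Mrpl42 (3 each) and Mrps25 (2). Each of these counts includes the 1.2-fold minimum, which alone ended the calls of the rest. The 35 members that missed the threshold lay between -0.14 in Mrpl48 and 0.12 in Mrps16. Mrpl48 had 15.5, 16.3 and 14.9 CPM with vehicle and 14.4, 13.6 and 14.3 CPM with palmitate, without overlap (edgeR adjusted p = 0.0592), and passed with library totals alone, upper-quartile scaling, length and GC offsets (with or without a replicate block), and without vehicle replicate 3. Of the 42 calls, 26 held in every alternative other than the 1.2-fold minimum, and 15 were lost with DESeq2. DESeq2 as run here called 33.4% of 17048 genes in either direction. In the authors' deposited table, made with DESeq2, 23 members were higher and 4 lower at a q-value under 0.05. Beside them stand 24.2% of all 23399 genes in either direction, a base with many genes that failed the low-count filter used here. There Mrpl45 had a log2 fold change of 0.43 and Mrps14 one of -0.40, per the authors' deposited table.

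Levels between genes were compared as CPM per kilobase of the main transcript, with lengths from an earlier annotation than the counts used. Over both groups the members spanned 3.46 to 99.3 CPM per kilobase with a median of 22.8, or 25.9 in the large and 19.0 in the small subunit. The highest level was in Mrpl33 and the lowest in Mrpl48 within the large subunit, and in Mrps21 (82.5) and Mrps26 (6.66) within the small. These ranks rest on the length used, that of the longest best-ranked principal transcript. It was 478 bases in Mrpl33 and 488 in Mrps21, against 4285 in Mrpl48 and 4278 in Mrps26. Before division by length Mrps26 averaged 28.5 CPM, above Mrps36 at 7.75 CPM. Mrpl33 had 48.3, 46.0 and 47.0 CPM with vehicle and 47.2, 47.2 and 49.3 CPM with palmitate (log2 fold change 0.03, not called). Mrps21 had 43.9, 39.9 and 39.2 CPM with vehicle and 38.8, 39.2 and 40.4 CPM with palmitate (-0.05, not called). Both overlapped between groups. Members had short transcripts, with a median of 1316 bases against 2716.5 over tested genes with a length. With length and GC offsets fitted for each library, 29 members rose and 7 fell, beside 52.2% of 14446 tested genes called in either direction. Replicates were close: the median coefficient of variation of a member's CPM was 3.19% with vehicle and 3.2% with palmitate.

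Upstream sequences were examined because many genes for mitochondrial proteins are known to carry sites of the nuclear factors NRF1, GABP and YY1 near their starts. RefSeq promoters (build GRCm38.p6, 250 bases before to 50 after the start) matched 68 members by symbol. The letters CCGGAAG, read by ETS factors such as GABP, stood on either strand in 35.3% of these, against 9.12% of 27025 symbols with a promoter and 18.5% of the 10319 tested genes among them. The NRF1 letters GCGCATGCG were found in 10.3% of members, 1.81% of all and 3.67% of tested genes, and GCGCANGCG, which includes them, in 23.5%, 6.47% and 13.8%. The YY1 letters AAGATGGCG were found in 11.8%, 1.495% and 3.22%. The E-box CACGTG (7.35%, 7.24% and 10.2%) and the CCAAT letters (38.2%, 37.9% and 39.3%) showed shares near those of other genes, and GGGCGG, read by SP1, was found in 50.0%, 35.9% and 64.2%. A match of letters describes a sequence and does not show that a factor binds there.

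By call, CCGGAAG stood in 10 of 32 members that rose, 0 of 4 that fell and 14 of 32 that missed the threshold, and GCGCANGCG in 9, 0 and 7 of these. With 4 promoters of falling members, a share of 0 says little. The 150 bases before the start are shown for 4 members that rose and 2 that fell, the strongest of each with a listed promoter plus the stalk gene Mrpl12 and the platform gene Mrps6, to let these letters be seen in place. They read 5′ to 3′ on the strand of the gene and end at the last base before the start. Capitals mark any of the 7 searched sets of letters, on either strand.
Mrpl45 (chr11:97315566-97315715, + strand): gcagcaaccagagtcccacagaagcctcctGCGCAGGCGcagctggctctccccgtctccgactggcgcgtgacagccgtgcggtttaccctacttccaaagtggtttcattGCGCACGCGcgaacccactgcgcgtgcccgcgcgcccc
Mrpl10 (chr11:97041432-97041581, + strand): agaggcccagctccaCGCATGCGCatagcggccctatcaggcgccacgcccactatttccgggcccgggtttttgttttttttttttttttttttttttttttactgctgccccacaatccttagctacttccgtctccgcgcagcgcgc
Mrps26 (chr2:130563607-130563756, + strand): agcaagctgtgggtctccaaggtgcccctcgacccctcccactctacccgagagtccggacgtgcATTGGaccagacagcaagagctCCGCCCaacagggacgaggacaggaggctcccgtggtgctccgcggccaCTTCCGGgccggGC
Mrpl12 (chr11:120484487-120484636, + strand): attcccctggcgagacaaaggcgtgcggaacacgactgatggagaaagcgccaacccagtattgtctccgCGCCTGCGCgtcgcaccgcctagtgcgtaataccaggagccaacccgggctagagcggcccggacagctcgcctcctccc
Mrps14 (chr1:160195065-160195214, + strand): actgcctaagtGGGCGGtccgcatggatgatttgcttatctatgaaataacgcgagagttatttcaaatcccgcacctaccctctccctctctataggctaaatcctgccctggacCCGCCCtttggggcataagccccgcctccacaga
Mrps6 (chr16:92058186-92058335, + strand): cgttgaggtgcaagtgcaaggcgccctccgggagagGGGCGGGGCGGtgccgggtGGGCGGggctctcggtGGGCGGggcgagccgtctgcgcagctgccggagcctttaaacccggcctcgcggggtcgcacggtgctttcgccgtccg

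In Mrpl45 the capitals are matches to GCGCANGCG that begin 120 and 38 bases before the start. Mrpl10 holds the full NRF1 letters 135 bases before it, and Mrpl12 a match to the looser form 80 bases before it. Mrps26 carries CCAAT, SP1 and ETS letters in that order, the last of them 14 bases before the start, and the first bases of a looser NRF1 match. The capitals in Mrps14 and Mrps6, which both fell, are all SP1 letters. In the whole promoter Mrps5 and Mrps7, which rose, also held SP1 letters alone, and Mrpl47, which fell, held none of the searched letters. By call, GGGCGG stood in 13 of 32 members that rose, 3 of 4 that fell and 18 of 32 that missed the threshold.

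There are 19 members that have a protein-coding neighbour on the other strand whose start lies within 1000 bases, in the earlier annotation, so that both are read outward from 1 stretch of DNA. Of these neighbours 18 were tested (Lrrc46, beside Mrpl10, was not) and 6, or 33.3%, were called, beside 52.8% of all tested genes. In 3 pairs both genes rose: Mrps12 with Sars2, the mitochondrial seryl-tRNA synthetase gene (15.8 ± 0.812 against 17.9 ± 0.584 CPM, SD, n = 3 each, log2 fold change 0.19), Mrps5 with the zinc finger gene Zfp661 (0.66) and Mrpl51 with the condensin gene Ncapd2 (0.07). The calls of Mrps12 and Mrpl51 were unsure, since both were lost with DESeq2 and without vehicle replicate 1, among other alternatives. In some other pairs 1 gene alone was called. Ppp1r10 fell (-0.16) beside Mrps18b, Helq rose (0.14) beside Mrps18c, and Ptcd2 rose (0.13) beside Mrps27, which had a log2 fold change of -0.06. Overlaps limit some counts: 35 members overlap a gene on the other strand and 12 one on the same strand, among them Mrpl45, Mrpl10, Mrps26, Mrps7, Mrps28, Mrps6 and Mrpl47. Whether counting used strand is not stated in the sources at hand, and values of these members are less certain. The 4 pseudogene rows left out held 0 to 8 counts per library.

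Other parts of the mitochondrial translation system were taken from lists of symbols. Beside them stand 27.4% of all tested genes called higher, 25.4% lower and 52.8% in either direction. Of 5 mitochondrial ribosome proteins with other names, 2 rose: Gadd45gip1, at the exit tunnel (76.3 against 88.1 CPM, log2 fold change 0.21), and Aurkaip1 of the small subunit (39.6 against 44.6 CPM, 0.17). Dap3, a GTP-binding protein of the small subunit (-0.01), Ptcd3 (0.04) and Chchd1 (0.01) did not pass, and 0 fell with edgeR, also 0 at an unadjusted p under 0.05, with DESeq2 and with limma-voom. Of 29 genes of ribosome assembly and rRNA modification 10 rose, among them Mettl15 (0.65), a methyltransferase of the small subunit rRNA, Eral1 (0.21), its chaperone, Ddx28 (0.14) and Mrm1 (0.25). In that list 0 fell with edgeR, 1 at an unadjusted p under 0.05, and 0 with DESeq2 and with limma-voom. Its 10 calls were 34.5% of the list, above the 27.4% called higher and below the 52.8% called in either direction over all tested genes. DESeq2 called 3 of it higher.

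Of 19 translation factors 8 rose, including the elongation factor gene Gfm1 (109 against 119 CPM, 0.12), the initiation factor genes Mtif2 (0.16) and Mtif3 (0.15) and Taco1 (0.25), an activator of translation, and Qrsl1 fell (-0.15). That is 42.1% called higher and 5.26% lower, beside 27.4% and 25.4% of all tested genes. DESeq2 called 2 of the factors higher and 0 lower. Of 17 mitochondrial aminoacyl-tRNA synthetases 5 rose, among them Cars2 (0.31) and Aars2 (0.19), and 2 fell, among them Wars2 (-0.18). That is 29.4% called higher, near the 27.4% of all tested genes, and DESeq2 called 2 higher and 0 lower (3 lower at an unadjusted p under 0.05 in edgeR). Of 22 genes of mitochondrial transcription and message stability 9 rose, led by the tRNA-processing nuclease gene Elac2 (47.7 against 62.2 CPM, 0.38), Tbrg4 (0.27), Rexo2 (0.42) and Pnpt1 (0.18), and the poly(A) polymerase gene Mtpap fell (-0.17). That is 40.9% of the list called higher and 4.55% lower. In that list DESeq2 called 6 higher and 0 lower (1 lower at an unadjusted p under 0.05 in edgeR). The list medians were 0.06 for assembly, 0.07 for translation factors, 0.05 for synthetases and 0.15 for transcription.

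The ribosomal RNAs of the mitochondrion were read beside the proteins. The small subunit rRNA mt-Rnr1 had 115, 113 and 111 CPM with vehicle and 116, 118 and 120 CPM with palmitate. The large subunit rRNA mt-Rnr2 had 346, 329 and 366 CPM with vehicle and 318, 291 and 266 CPM with palmitate. Neither passed the threshold (0.06 and -0.25 in log2, edgeR adjusted p = 0.0599 and 0.0645), although groups overlapped in neither gene. At an unadjusted p under 0.05 there was 1 in each direction, limma-voom called 0, and DESeq2 called 1 of them lower. Libraries were selected for poly(A) RNA, which captures such rRNA only in part.

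Nuclear respiratory chain genes and cytosolic ribosomal proteins were set beside the members. Over all tested genes 27.4% were called higher and 25.4% lower. Of 76 tested nuclear genes for respiratory chain subunits, 43 rose and 4 fell (56.6% and 5.26%), with a median of 0.08. Of 77 tested cytosolic ribosomal protein genes, 17 rose and 26 fell (22.1% and 33.8%), with a median of -0.02. Their summed level was 28146 ± 132 CPM with vehicle and 28109 ± 44.0 CPM with palmitate (SD, n = 3 each), whereas the summed level of the mitochondrial ribosomal proteins was 2815 ± 15.3 and 3012 ± 29 CPM. The difference between these groups of genes was not tested.

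**Figure D4:**
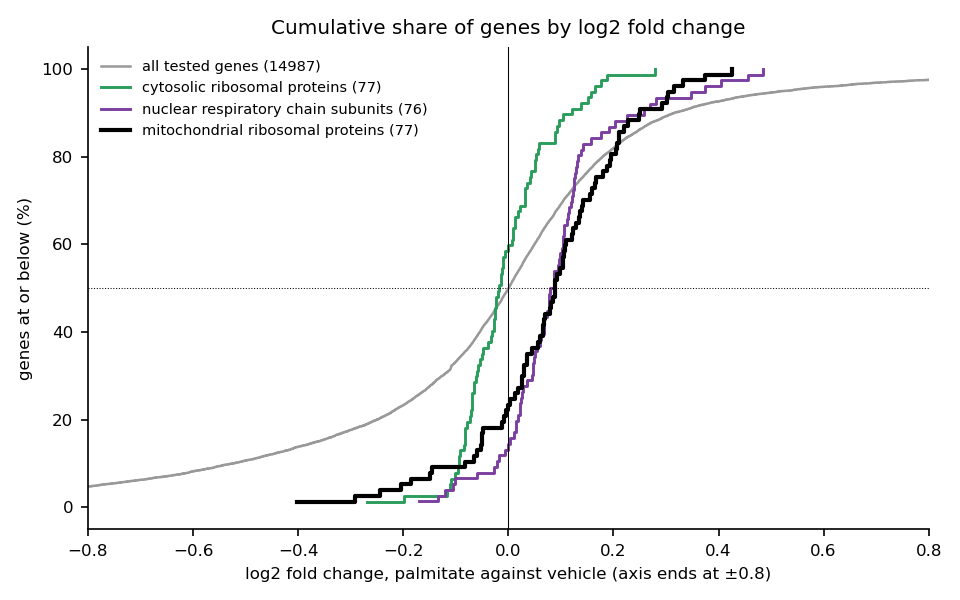
Cumulative share of genes (y axis, percent) at or below each log2 fold change with palmitate (x axis, cut at -0.8 and 0.8), for all tested genes, cytosolic ribosomal proteins, nuclear respiratory chain subunits and mitochondrial ribosomal proteins. The last pair of curves cross the halfway line at 0.08 and 0.09, the cytosolic curve at -0.02 and that of all genes at 0.00.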

How the data were processed

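RNA counts came from 6 libraries of polyadenylated RNA made with a strand-marking kit, per the labels' protocols. Tools named by the authors are STAR (2.6.1), DESeq2 (1.34.0), HTSeq and FastQC (0.11.8), on mouse build mm39, per the submitters' processing notes. The deposited table holds raw counts per gene. The authors' deposited gene table holds log2 fold changes from DESeq2 with their p-value and q-value, per the file headers. Shrinkage of these is not stated in the sources at hand.

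The main test was glmQLFTest after a robust glmQLFit in edgeR (4.0.16, under R 4.3.3), with TMM scaling and filterByExpr at a minimum count of 10, adjusted over 14987 genes at 0.05. CPM is TMM-normalised, and an SE is the log2 fold change over the root of its F. Alternatives were median-of-ratios, upper-quartile and total scaling, no filter, DESeq2 1.42.0, limma-voom (limma 3.58.1), glmTreat at 1.2-fold, a replicate block, length and GC offsets, both together, thinning to the shallowest library, subunits by structure, and leaving out each library. The edgeR test was tried on simulated data. Members and lists were chosen with earlier results of these data known.

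Full values were given for the 6 called members of at least 1 CPM with the greatest rise and the 6 with the greatest fall, the highest and lowest member per kilobase in each subunit, and a panel of members with known further roles. From other lists, up to 4 called genes with the smallest p were named, and further genes that fell, or that are no list members, were named after their values were seen. Transcript length and GC came from the principal transcripts of GENCODE M21 (GRCm38), matched by Ensembl identifier for all 77 members. Between libraries of a group, the chi-square statistic per degree of freedom ran from 1.20 to 1.38 for genes with at least 20 summed counts, so none was taken for a copy. A value near 1 is counting error alone. The common coefficient of variation beyond counting in edgeR was 1.28%, so small p-values rest on this small spread. Libraries held 18.9 to 22.9 M counts, and low genes carry more counting error. Figures used matplotlib 3.10.9.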

Additional observations from a re-analysis of the deposited data

How the results depend on the processing

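Every one of the 42 called members kept its direction in all alternatives, and 39 calls were lost against the 1.2-fold minimum. That test left 2 members higher and 1 lower (large subunit 2 and 0, small subunit 0 and 1) of 2275 genes called in all. It counts only changes shown to exceed its minimum, which few members reach. DESeq2 called 23 higher and 4 lower (large subunit 12 and 0), and the cause was not tested. Upper-quartile scaling left 14 large subunit genes higher. The median log2 fold change of members was 0.062 with upper-quartile scaling, 0.072 with library totals alone, 0.0668 with length and GC offsets and 0.0672 with the replicate block and these offsets together, against 0.089. In these 4 alternatives the median of all tested genes was -0.0263, -0.0164, -0.0114 and -0.0112, against 0.000678. It thus fell along with the member median, and no scaling moved it by more than 0.03. Leaving out 1 library gave 27 to 36 members higher and 4 to 7 lower, 14 to 23 large subunit genes higher and 0 to 3 lower, 12 to 13 small subunit genes higher and 4 lower, a member median of 0.0816 to 0.104, a difference of subunit medians (large minus small) of -0.0349 to -0.0148, a difference of subunit ratios of 0.0245 to 0.0456 and 7260 to 7406 genes called. The 14 came without palmitate replicate 3, the 0 without palmitate replicate 2, the 0.0245 without palmitate replicate 1 and the -0.0148 without vehicle or palmitate replicate 2. No sign of pairing by replicate number was seen: deviations of same-numbered libraries correlated at -0.00448, 0.00846 and 0.00715, and not every library correlated best with its own number. Correlations over all pairs ran only from -0.0195 to 0.0121. Deviations within a group were mostly counting error, so this check cannot tell pairing from none. With the replicate block 36 members were called higher and 6 lower. Thinned to the shallowest library, 32 were higher and 6 lower. A member near 5 CPM, such as Mrpl23 (SE 0.112), was measured less precisely than one near 90 CPM, such as Mrpl12 (SE 0.0291).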

Other observations

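Among nuclear regulators of mitochondrial genes, 6 of 14 tested members rose and 1 fell, beside 27.4% and 25.4% of all tested genes. Ppargc1a, a coactivator of mitochondrial gene expression, rose from 22.7 to 33.1 CPM (log2 fold change 0.55, adjusted p = 2.34e-16, edgeR), and Mycn, a MYC family gene, from 15.3 to 27.7 CPM (0.86). The 1 that fell was Myc, the more abundant of that family here, from 60.8 to 57.2 CPM with overlapping groups (-0.09, edgeR adjusted p = 0.031), and DESeq2 called 6 of the list higher and 0 lower. The general factors Thap11 (0.21) and Max (0.24) also rose. Of the factors whose letters were counted in promoters, Yy1 rose (0.10), and of the GABP subunits Gabpb1 rose (0.17) while the DNA-binding Gabpa (0.00) did not pass the threshold. Nrf1 (0.02) and Esrra (-0.01) did not pass it.

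In a list of the mitochondrial unfolded protein response, 10 of 17 genes rose and 2 fell, which is 58.8% and 11.8% beside 27.4% and 25.4% of all tested genes. DESeq2 called 6 higher and 2 lower. The stress regulator Atf4 (239 against 279 CPM, 0.23), the import chaperone gene Hspa9 (478 against 538 CPM, 0.17), the protease genes Lonp1 (0.13) and Clpp (0.21) rose. The chaperonin genes fell, Hspe1 from 68.2 to 61.6 CPM (-0.15) and Hspd1 from 517 to 499 CPM (-0.05).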
